A study of Mus musculus with 9 samples.

Results

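Integrins and the proteins of the focal adhesion were measured here as RNA in single capillaries with their surrounding cells, cut by laser from the ossification front (OF) of mouse femurs. The set held 45 protein-coding genes of the 39179 genes counted in each library. It was made up of every gene whose symbol marks an integrin alpha or beta chain, 17 alpha and 7 beta, and of 21 genes for talins, kindlins, the ILK complex, kinases and scaffolds and proteins that tie adhesions to actin. Itga2b and Itgb3 were left out of the set. The rule that picked the members used gene symbols and names and no measured value. The choice was made with earlier results of these data known.

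All mice carried the Tg(TIE2GFP)287Sato/J reporter on a C57BL/6 background, in which the Tie2 promoter drives GFP in endothelial cells. Juvenile mice were 4 weeks old (n = 5 libraries) and adult mice 12 weeks old (n = 4), with no further treatment at either age. The cut pieces held the capillary and the cells beside it, so bone-forming, bone-resorbing and marrow cells entered the libraries too. RNA was copied from its poly-A tail and amplified before sequencing.

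Library totals ranged from 4856833 to 8077362 counts, and between 0.34% and 0.42% of the counts of a library fell on the 45 members. A count of 3 was worth 0.371 to 0.618 CPM, the count scaled to library size, which covers counting error only. Endothelial markers were present at both ages, with a summed level of 574 to 968 CPM in juvenile and 597 to 819 CPM in adult libraries. Osteoblast markers summed to 92400 to 117000 CPM in juvenile and 34300 to 51500 CPM in adult libraries, and of the 9 tested 4 were called higher in juvenile and 1, Bglap, higher in adult libraries. Osteoclast markers summed to 13000 to 21200 CPM in juvenile and 16600 to 25600 CPM in adult libraries, which overlap. Of the 8 tested, 2, Acp5 and Atp6v0d2, were called higher in adult libraries, and the part of osteoclasts in the values of the members was not tested. Juvenile replicates 4 and 5 carried Y-linked counts and at most 11 Xist counts, whereas the other 7 libraries carried at least 2965 Xist counts. In bulk pieces such as these, fewer cells of a type and less RNA per cell cannot be told apart.

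Integrins are receptors of 1 alpha and 1 beta chain that span the membrane, bind collagen, laminin, fibronectin or a counter-receptor outside the cell and join the cytoskeleton inside it. Talin and kindlin bind the beta tail and switch the receptor on, ILK with PINCH and parvin forms a platform beneath it, focal adhesion kinase and its partners pass the signal on, and filamin, alpha-actinin and vinculin hold the actin. In bone, beta 1 integrins tie osteoblasts and endothelial cells to matrix, the alpha v chain serves osteoclasts, and beta 2 integrins belong to leukocytes.

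Of the 45 members, 39 had enough counts to be tested, 19 integrins and 20 others. Parva was higher in juvenile and Itgam higher in adult libraries, and these 2 members were called of 39 (5.13%) by edgeR's quasi-likelihood test at a Benjamini-Hochberg adjusted p under 0.05. Over all 13418 genes tested, 1.99% were called higher in juvenile and 1.89% higher in adult libraries, so 1 member in each direction (2.56%) is near the background. At an unadjusted p under 0.05 stood 11 of the 39 members (28.2%), against 17.3% of all genes, 5 of them with a higher juvenile and 6 with a higher adult level. The median log2 fold change, juvenile over adult, was -0.12 over the 39 members and -0.01 over all genes tested. For 13 of the 39 (33.3%) the 95% interval of the fold change lay within a doubling or a halving, against 24.5% of all genes.

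**Figure D1:**
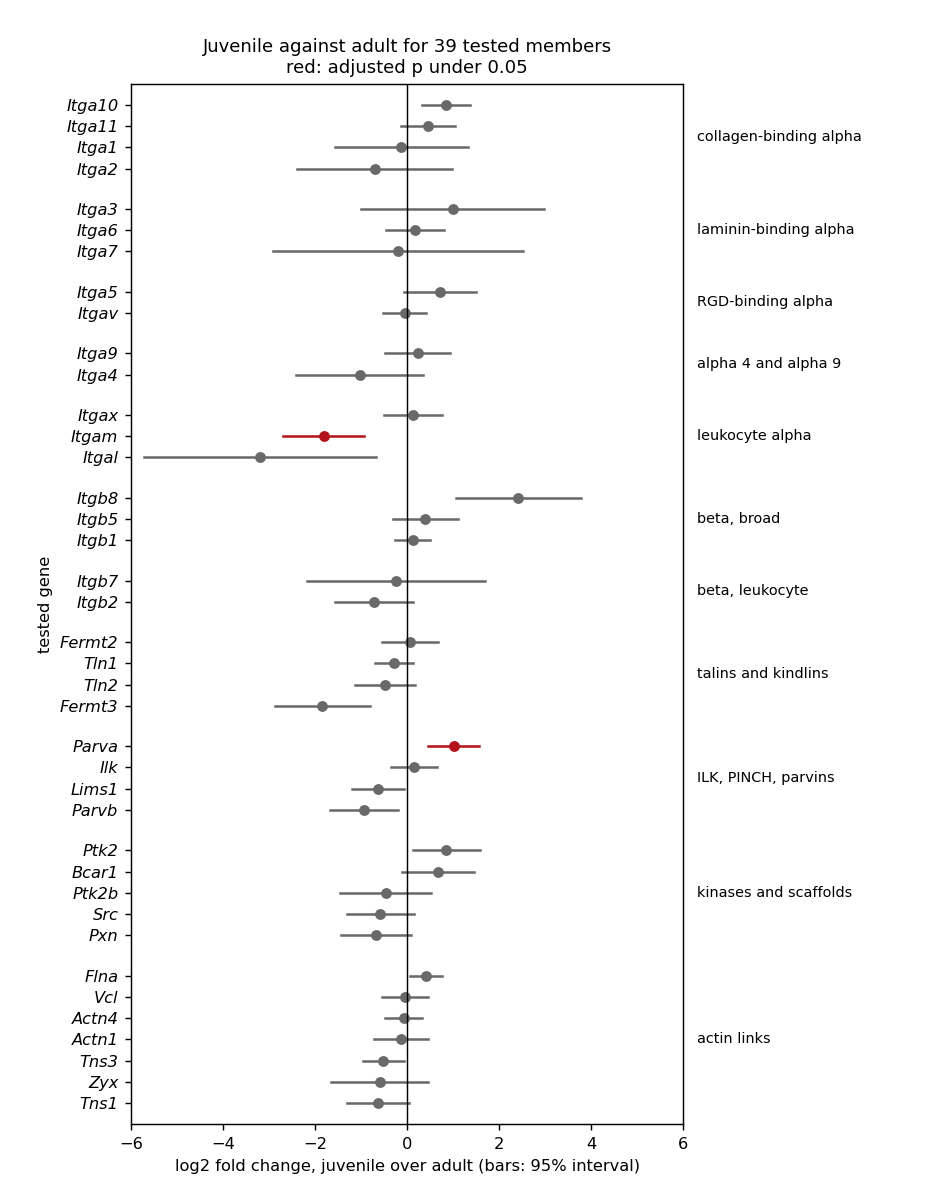
Log2 fold change, juvenile over adult, of the 39 tested members with its 95% interval, grouped by role. Parva and Itgam, in red, had an adjusted p under 0.05, and most other intervals cross 0.

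In level, the set was led by few genes. Levels between genes are given as TMM-scaled CPM per kb of exon. Ilk, the integrin-linked pseudokinase, was listed highest at 124 ± 20.0 (SD, n = 5) in juvenile and 112 ± 39.9 (n = 4) in adult libraries, but 76.7% of its exon sequence lies under Taf10 on the other strand, and the strand setting of the counting is not given in the sources used here, so its level is uncertain. Itgb1, the beta chain shared by most matrix-binding integrins, followed at 103 ± 15.2 per kb and 94.4 ± 17.4 per kb. Itga10, a collagen-binding alpha chain, stood at 61.7 ± 15.8 per kb in juvenile and 34.5 ± 9.77 per kb in adult libraries. It shares 33.5% of its exon sequence on the same strand with Gm42957, which is not among the genes counted. Actn4, an alpha-actinin, had 42.7 ± 6.63 per kb and 44.9 ± 9.15 per kb, which differ by less than their spread. The levels of Flna, Itgb5, Itgav, Fermt2 and Tln1 lay between 20.1 and 41.2 per kb in both groups, and the mean ± SD of neighbours in that order overlapped at both ages.

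**Figure D2:**
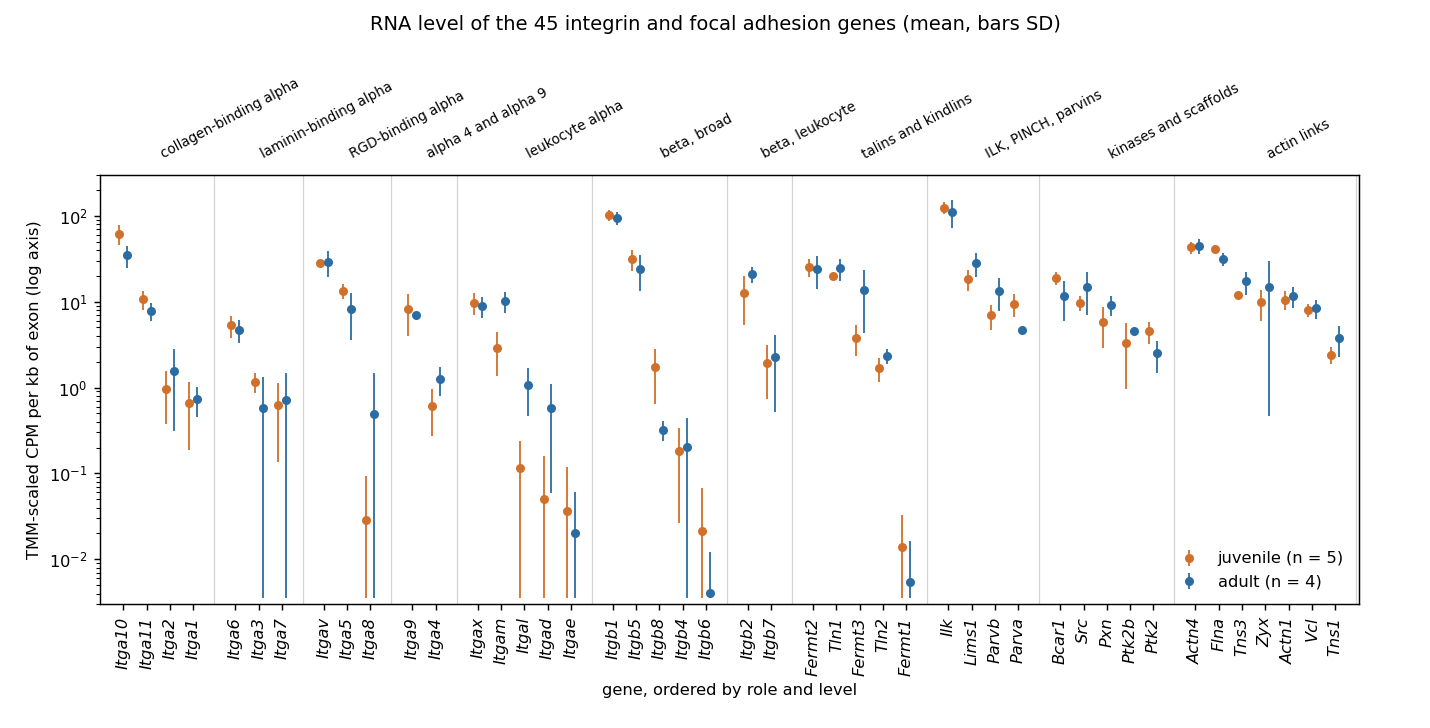
Mean TMM-scaled CPM per kb of exon, on a log axis, of all 45 members in juvenile (orange) and adult (blue) libraries, with the SD as bars that stop at the foot of the axis where they would pass 0. Itgb1 and Ilk lie near 100 per kb at both ages, and Itgae, Itgb6 and Fermt1 lie under 0.1 per kb.

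Itgam, the alpha M chain (CD11b) of the complement receptor on neutrophils, monocytes and macrophages, was the 1 integrin called, and it was higher in adult libraries. The gene lies on the plus strand of chr7:128062640-128118491 (GRCm38). It shares 68.7% of its exon sequence on the same strand with Gm49368, which is not among the genes counted. Its normalized counts were 152, 47.9, 72.1, 129.6 and 51.9 in juvenile replicates 1 to 5 and 392, 288, 391 and 209.9 in adult replicates 1 to 4. Every adult library lay above every juvenile one. Mean and SD were 90.8 ± 47.5 over 5 juvenile and 320.3 ± 88.2 over 4 adult libraries, a log2 fold change, juvenile over adult, of -1.82 (SE 0.41, 95% interval -2.70 to -0.93, edgeR adjusted p = 0.0283), or 3.53-fold higher in adults.

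The call of Itgam stood without juvenile replicates 1 or 4 and without adult replicates 2 or 4. It was lost without juvenile replicate 2 (adjusted p = 0.061), juvenile replicate 3 (0.0739), juvenile replicate 5 (0.0723), adult replicate 1 (0.0541) or adult replicate 3 (0.0681), while the log2 fold change stayed between -2.09 and -1.66. Among the 7 libraries left after removing the juvenile replicates with Y-linked counts, it was -1.82 with an adjusted p of 0.145. Marker sums of neutrophils and macrophages were also higher in every adult than in every juvenile library. B cell sums overlapped between the ages, and that of adult replicate 2 lay below every juvenile library. None of the 6 B cell markers tested of 8 was called, though all 6 had negative log2 fold changes, with a median of -2.89. Ebf1, with the highest mean of the list at both ages, averaged 247 normalized counts in juvenile and 257 in adult libraries. Of the untested markers, Pax5 averaged 6.53 and 19.9, and Ms4a1 16.45 and 1.57. Neutrophil markers summed to 18.1 to 73.4 CPM in juvenile and 102 to 4320 CPM in adult libraries, 7 of the 9 tested of 10 were called higher in adults, and Ly6g, which did not pass the filter, was at 0 in 8 of the 9 libraries. Macrophage markers summed to 485 to 827 CPM and 1100 to 1830 CPM, and 2 of 8, Csf1r and Vcam1, were called higher in adults. Csf1r and Cd68 had the highest means, 2033 and 1884 normalized counts in juvenile and 4155 and 2752 in adult libraries. Cd68, Adgre1, C1qa, C1qb, C1qc and Mrc1 had lower juvenile means too, but overlapped between the ages and were not called. The part of neutrophils or macrophages in the Itgam difference was not tested. Adult replicate 2, with 288 normalized counts of Itgam, had a neutrophil sum of 102 CPM, below the 3480 CPM or more of the other adult libraries and above every juvenile library. Its macrophage sum was 1100 CPM. Adult replicate 4 had fewer Itgam counts (209.9) at higher sums of both, 3480 CPM for neutrophils and 1540 CPM for macrophages.

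The other leukocyte alpha chains gave differing values. Itgal (alpha L, the LFA-1 chain of lymphocytes and myeloid cells) had 0, 0, 8.01, 11.8 and 3.99 normalized counts in juvenile replicates 1 to 5 and 58.8, 23.1, 72.2 and 22.8 in adult replicates 1 to 4. The ages did not overlap, but at these low counts the edgeR adjusted p was 0.159 (log2 fold change -3.20, SE 1.17), and DESeq2 gave 0.0363. T and NK cell markers summed to 1.88 to 11.2 CPM in juvenile and 32.2 to 118 CPM in adult libraries, and their part was not tested. Of these 8 markers 2 were tested and 1, Nkg7, was called higher in adults, at 3.43 ± 5.74 and 341 ± 189 normalized counts, while Trac stood at 23.2 ± 13.7 and 22.5 ± 17.7. Among the untested markers, Cd3d averaged 2.29 in juvenile and 44.9 in adult libraries and Cd3g 1.78 and 9.9. Cd4 averaged 7.49 and 5.4, Cd3e 0.72 and 0, Klrb1c 1.81 and 0, and Cd8a 0 and 0.36. Itgax (alpha X, CD11c), whose gene neighbours Itgam, ran from 198 to 429 normalized counts in juvenile and from 189 to 355 in adult libraries, which overlap (log2 fold change 0.13, SE 0.29, adjusted p = 0.897). Itgad and Itgae did not pass the filter on low counts, with at most 46 and 4 raw counts in any library.

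Among the beta chains of leukocytes, Itgb2 (beta 2, CD18), the partner of alpha L, M, X and D, had 419, 216, 350.0, 126 and 97.1 normalized counts in juvenile and 369, 336, 524 and 366 in adult libraries. Juvenile replicates 1 and 3 reached the adult range (log2 fold change -0.72, SE 0.40, adjusted p = 0.384). Itgb7, found on mucosal lymphocytes, varied from 2.18 to 67.6 normalized counts within the adult group alone (adjusted p = 0.941). Put together per kb, the leukocyte chains Itgad, Itgae, Itgal, Itgam, Itgax, Itgb2 and Itgb7 were set against all integrin members, without Itga2b and Itgb3. They took 6.74% to 12.8% of that RNA in juvenile and 13.8% to 19.8% in adult libraries, with means of 9.27% and 17.1%. This share is a description and was given no test.

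**Figure D3:**
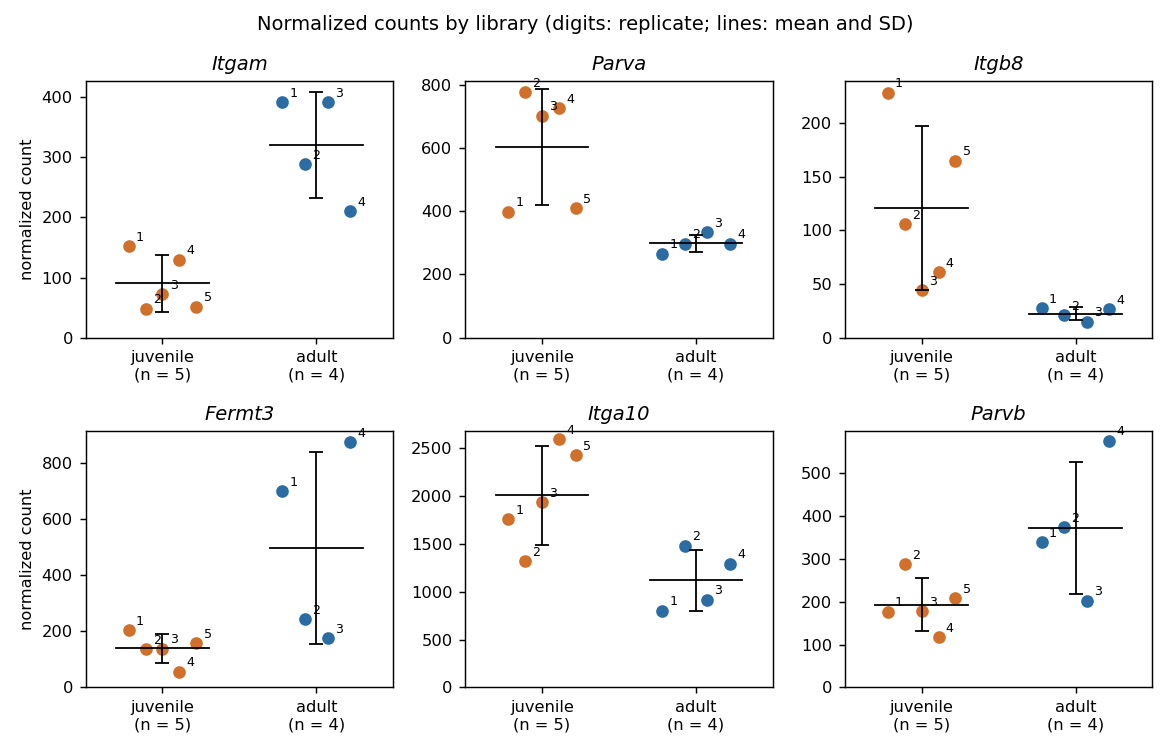
Normalized counts of Itgam, Parva, Itgb8, Fermt3, Itga10 and Parvb in each library, with the replicate number beside each point and the mean and SD as lines. The ages do not overlap for Itgam, Parva and Itgb8, and they do for Fermt3, Itga10 and Parvb.

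The sequence upstream of the start is shown for 4 members, those of lowest adjusted p that the RefSeq promoter table (GRCm38.p6) lists, 2 with a higher mean in adults (Itgam, Fermt3) and 2 with a higher mean in juveniles (Itgb8, Itga10). Each run is the 250 bases before the RefSeq start, 5′ to 3′ on the strand of the gene, and capitals mark a match to 1 of 3 motifs read on both strands: GAGGAA, a core bound by the myeloid factor PU.1, GGGCGG, the GC box, and GGAATG, a core bound by TEAD factors. GAGGAA and GGAATG can share letters where they run into each other. Itgam lies at chr7:128062390-128062639 on the plus strand, Fermt3 at chr19:7019470-7019719 on the minus strand, Itgb8 at chr12:119238277-119238526 on the minus strand, inside the gene as GENCODE draws it (chr12:119158022-119238802), and Itga10 at chr3:96645334-96645583 on the plus strand.
Itgam: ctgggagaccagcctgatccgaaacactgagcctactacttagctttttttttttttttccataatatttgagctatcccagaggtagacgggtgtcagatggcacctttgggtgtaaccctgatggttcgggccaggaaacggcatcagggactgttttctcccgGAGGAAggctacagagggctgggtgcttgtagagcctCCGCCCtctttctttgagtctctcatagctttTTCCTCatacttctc
Fermt3: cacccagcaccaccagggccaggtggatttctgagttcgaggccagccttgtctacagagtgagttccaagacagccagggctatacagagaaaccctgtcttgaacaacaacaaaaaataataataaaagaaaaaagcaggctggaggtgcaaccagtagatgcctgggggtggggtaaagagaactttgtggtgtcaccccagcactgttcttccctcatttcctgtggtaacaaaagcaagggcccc
Itgb8: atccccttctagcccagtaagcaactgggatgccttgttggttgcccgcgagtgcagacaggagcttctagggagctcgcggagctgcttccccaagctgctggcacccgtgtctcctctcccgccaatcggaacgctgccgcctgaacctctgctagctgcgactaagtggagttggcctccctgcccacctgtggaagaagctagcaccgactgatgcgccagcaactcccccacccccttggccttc
Itga10: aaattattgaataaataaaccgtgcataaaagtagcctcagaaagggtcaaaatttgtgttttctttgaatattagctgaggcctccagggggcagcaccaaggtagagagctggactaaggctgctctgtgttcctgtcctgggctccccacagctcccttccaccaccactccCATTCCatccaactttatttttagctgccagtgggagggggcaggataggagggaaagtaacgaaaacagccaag

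The Itgam window held GAGGAA beginning 84 bases and its complement TTCCTC beginning 15 bases before the start, with the GC box as CCGCCC 47 bases before it. The Itga10 window held GGAATG as CATTCC 75 bases before the start, and the windows of Fermt3 and Itgb8 held none of the 3 motifs. In the table, 33 of the 45 members had 39 promoters. GAGGAA was found in 10 of these 39 (25.6%) and in 23.3% of all 32851 promoters, GGAATG in 12.8% and 12.6%, and GGGCGG in 56.4% and 32.7%. A match describes letters in the window and not a bound site.

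The collagen-binding alpha chains were led by Itga10, which binds fibrillar collagens and is known from cartilage and bone. Its normalized counts were 1758, 1322, 1939, 2594 and 2429 in juvenile replicates 1 to 5 and 800.2, 1480.0, 916 and 1293 in adult replicates 1 to 4. Juvenile replicate 2 lay within the adult range, and the log2 fold change of 0.84 (SE 0.24, 95% interval 0.32 to 1.36) had an edgeR adjusted p of 0.0744. DESeq2 gave 0.0155 and limma with voom 0.1. Of the RNA per kb of the alpha chains in the set, which leaves out Itga2b, Itga10 made up 36.3% to 47.1% in juvenile and 22.3% to 38.1% in adult libraries. Osteoblast markers went in both directions, as given above, with the higher sums in juvenile libraries. Chondrocyte markers summed to 363 to 985 CPM in juvenile and 596 to 4660 CPM in adult libraries. Adult replicate 2 had the highest chondrocyte sum and the highest adult count of Itga10. Adult replicate 1, with the next highest sum (1050 CPM), had the lowest count of Itga10 of all libraries. The part of osteoblasts or chondrocytes was not tested.

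Itga11, the collagen receptor of mesenchymal cells, had 270.3 to 441 normalized counts in juvenile and 203 to 326 in adult libraries (log2 fold change 0.46, adjusted p = 0.431). Itga1 and Itga2 lay under 142 normalized counts in every library, with log2 fold changes of -0.12 (SE 0.66) and -0.71 (SE 0.78). The intervals of this pair reach beyond a halving.

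**Figure D4:**
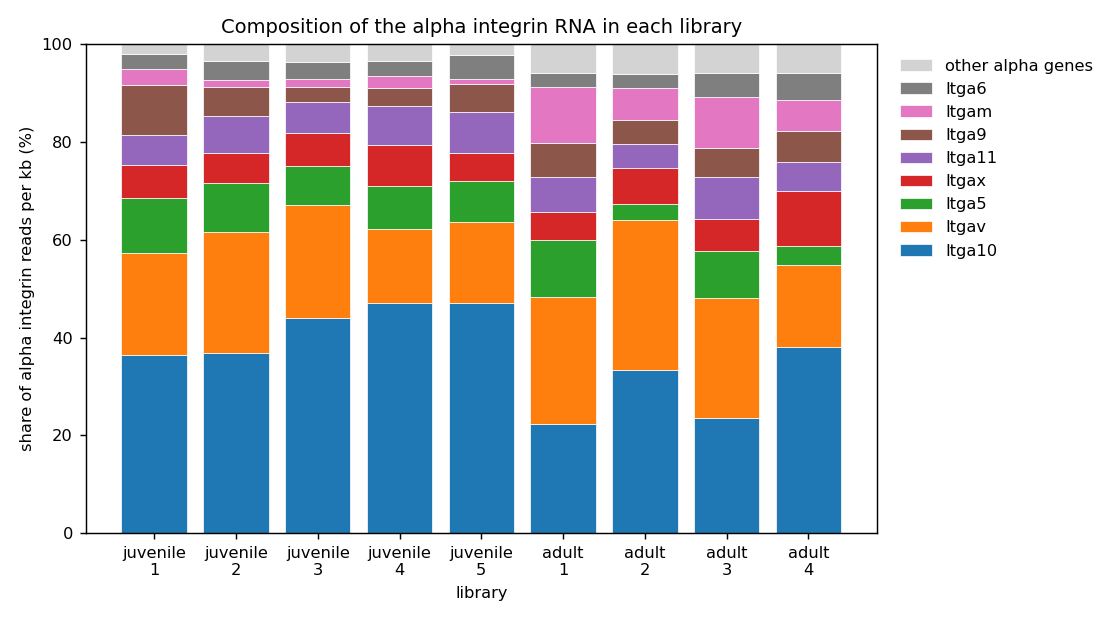
Share of each alpha chain in the RNA per kb of exon of all alpha members, in percent, for each library. Itga2b is not a member. The 8 most abundant chains are in colour and the rest in light grey. Itga10 covers 36.3% to 47.1% in juvenile and 22.3% to 38.1% in adult libraries, and the pink Itgam band covers 1.04% to 3.25% in juvenile and 6.38% to 11.2% in adult libraries.

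The alpha v and alpha 5 chains bind the RGD motif of fibronectin, osteopontin and vitronectin. Itgav had 2090.2, 1835, 2093, 1718 and 1768 normalized counts in juvenile and 1942, 2806, 1972 and 1178 in adult libraries. The juvenile values fall inside the adult range, and the log2 fold change was -0.05 (SE 0.21, 95% interval -0.52 to 0.41). Itga5, the fibronectin receptor chain, ran from 338 to 523 normalized counts in juvenile libraries and from 124 to 397 in adult ones, where replicates 2 and 4 were low (log2 fold change 0.71, SE 0.36, adjusted p = 0.339). Itga8 had counts in 2 libraries alone, 124 raw counts in adult replicate 1 and 5 in juvenile replicate 5.

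Next came the laminin-binding chains and alpha 4 and alpha 9. Itga6, the laminin receptor chain of endothelial and epithelial cells, had 242 to 447 normalized counts in juvenile and 181 to 333 in adult libraries (log2 fold change 0.17, SE 0.29, adjusted p = 0.850). Itga3 and Itga7 stayed under 92 normalized counts, with adjusted p of 0.669 and 0.969. Itga9 ran from 199 to 729 and from 309.8 to 374 normalized counts (adjusted p = 0.814), and Itga4, the VLA-4 chain that binds VCAM-1, from 6.68 to 87.8 and from 58.0 to 151 (log2 fold change -1.03, SE 0.64, adjusted p = 0.465).

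Of the broadly expressed beta chains, Itgb1 was the most abundant. Its normalized counts were 2222, 3245, 2693, 2398 and 2614 in juvenile and 2620, 2452, 2811 and 1784 in adult libraries. The log2 fold change was 0.12 (SE 0.18, 95% interval -0.25 to 0.50, adjusted p = 0.808), and the interval excludes a doubling. Of the RNA per kb of the beta chains in the set, which leaves out Itgb3, Itgb1 made up 68.4% ± 6.54 in juvenile and 66.1% ± 4.64 in adult libraries. Itgb5, an alpha v partner, had 436 to 972 normalized counts in juvenile and 237 to 804 in adult libraries (log2 fold change 0.40, SE 0.32, adjusted p = 0.613).

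Itgb8, the alpha v partner known for activating latent TGF-beta, had the largest positive fold change of the tested members. Its normalized counts were 229, 106, 44.1, 61.3 and 165 in juvenile replicates 1 to 5 and 27.6, 21.0, 14.8 and 26.7 in adult replicates 1 to 4. The ages did not overlap, and the log2 fold change was 2.42 (SE 0.63, 95% interval 1.06 to 3.78), but the edgeR adjusted p of 0.0513 missed the threshold. DESeq2 gave an adjusted p of 8.345e-04 and limma with voom 0.281. Without overlap, the juvenile libraries lay above the adult ones for 3 members of 39 (7.69%), Parva, Itgb8 and Bcar1, against 5.07% of all genes, and the adult libraries lay above for 2 (5.13%), Itgam and Itgal, against 4.08%. Itgb4 and Itgb6 did not pass the filter, with at most 23 and 4 raw counts.

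Talins and kindlins switch integrins on from inside. Tln1, the main talin, had 1099 to 1353 normalized counts in juvenile and 1068 to 2076 in adult libraries, the highest in adult replicate 4 (log2 fold change -0.29, SE 0.19, adjusted p = 0.510). Tln2 was lower in level than Tln1 in every library, and its log2 ratio to Tln1 per kb averaged -3.63 ± 0.50 in juvenile and -3.36 ± 0.55 in adult libraries (log2 fold change -0.49, SE 0.30, adjusted p = 0.462). Fermt2 (kindlin-2) had 641 to 1059 normalized counts in juvenile and 403 to 1199 in adult libraries (log2 fold change 0.06, SE 0.28, adjusted p = 0.951). Fermt1, the kindlin of epithelia, had at most 1 raw count in any library.

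Fermt3 (kindlin-3), the kindlin of blood cells and platelets, had 204, 137, 138, 56.6 and 158 normalized counts in juvenile replicates 1 to 5 and 699, 243, 175 and 873 in adult replicates 1 to 4. Adult replicates 1 and 4 were high, and adult replicate 3 lay below juvenile replicate 1. The log2 fold change was -1.84 (SE 0.48, 95% interval -2.88 to -0.81) with an edgeR adjusted p of 0.0513. DESeq2 gave 0.00438 and limma with voom 0.0906. The edgeR adjusted p was 0.0299 without adult replicate 2, 0.0281 without adult replicate 3 and 0.141 without adult replicate 4. Megakaryocyte and platelet markers summed to 590.0 CPM in adult replicate 1 and 4320 CPM in adult replicate 4, to 86.5 and 62.2 CPM in adult replicates 2 and 3, and to 11.8 to 21.1 CPM in juvenile libraries. Gp9 was at 0 in 5 of the 9 libraries, Treml1 in 6, Gp1ba in 7 and Gp6 in 8, every juvenile library among them. One of the 2 markers tested of 8 was called higher in adults, and the part of these cells in the Fermt3 values was not tested.

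**Figure D5:**
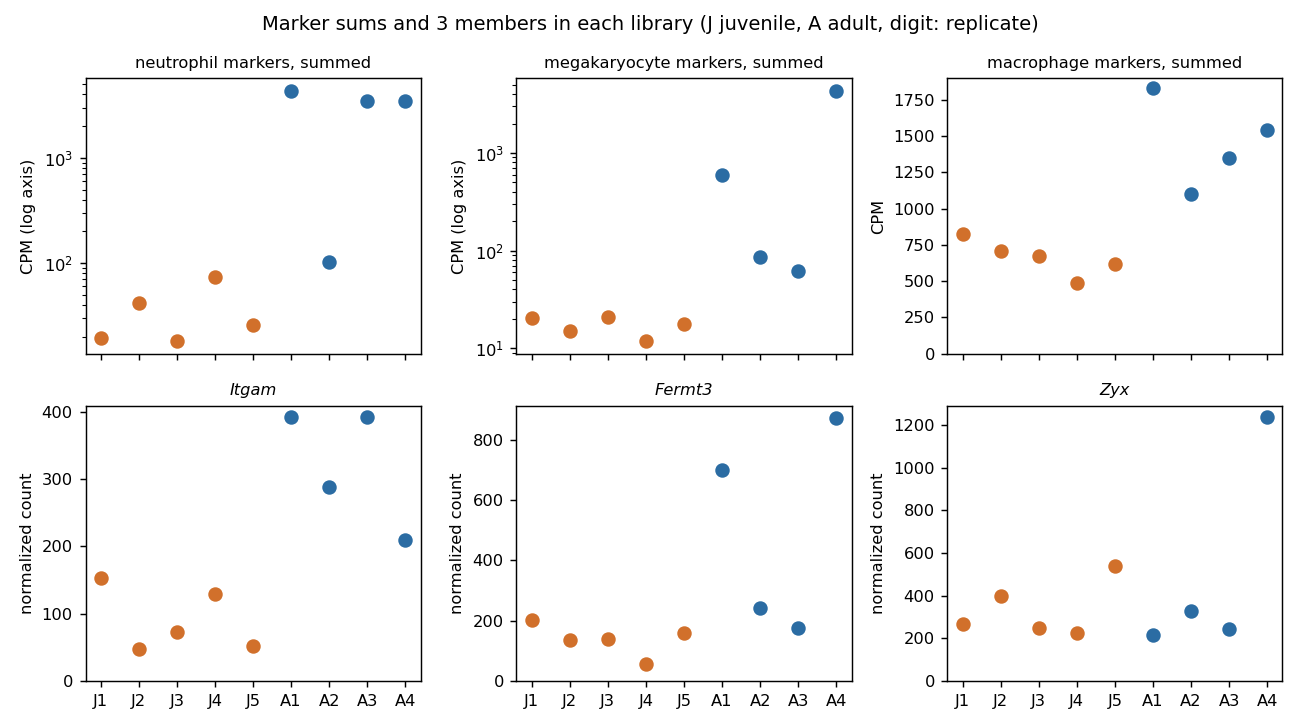
Summed CPM of neutrophil, megakaryocyte and macrophage markers (upper row, the first pair on log axes) above the normalized counts of Itgam, Fermt3 and Zyx (lower row) in each juvenile (J, orange) and adult (A, blue) library. Adult replicate 4 is highest for megakaryocyte markers, Fermt3 and Zyx, and adult replicate 2 is the lowest adult library for neutrophil markers.

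Parva (alpha-parvin) links ILK to actin, and it was the 1 adhesion protein gene called, higher in juvenile libraries. The gene lies on the plus strand of chr7:112427505-112591692 (GRCm38). Its normalized counts were 398, 776, 701, 726 and 409.7 in juvenile replicates 1 to 5 and 265, 297, 333 and 297 in adult replicates 1 to 4. Juvenile replicates 1 and 5 were nearest to the adult group, and the ages did not overlap. Mean and SD were 602 ± 183 over 5 juvenile and 298 ± 27.9 over 4 adult libraries, a log2 fold change of 1.02 (SE 0.26, 95% interval 0.46 to 1.57, edgeR adjusted p = 0.0443), or 2.02-fold higher in juveniles.

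This call was close to the threshold. It stood without juvenile replicates 1 or 5 and was lost without juvenile replicate 2 (adjusted p = 0.108), juvenile replicate 3 (0.11), juvenile replicate 4 (0.119), adult replicate 1 (0.0844), adult replicate 2 (0.0725), adult replicate 3 (0.0741) or adult replicate 4 (0.087), while the log2 fold change stayed between 0.91 and 1.13. Without juvenile replicates 4 and 5 together it was 1.07 with an adjusted p of 0.144. Limma with voom gave 0.98 with an adjusted p of 0.123. The osteoblast marker sums, led by Col1a1 and Ibsp, were higher in juvenile libraries as Parva was, while Bglap of the same list was higher in adults (9335 and 38370.0 normalized counts, log2 fold change -2.04, adjusted p = 0.0151), and their part was not tested.

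Parvb (beta-parvin), the paralog that is common in blood cells and muscle, had its higher mean at the other age. Its normalized counts were 176, 288, 178, 117 and 208 in juvenile and 338, 373, 202 and 576 in adult libraries. Adult replicate 3 lay within the juvenile range, and the log2 fold change of -0.94 (SE 0.34) had an adjusted p of 0.155. Within a library, the log2 ratio of Parvb over Parva per kb was 0.03, -0.23, -0.78, -1.44 and 0.22 in juvenile replicates 1 to 5 and 1.55, 1.53, 0.48 and 2.16 in adult replicates 1 to 4. These ratios did not overlap, with means of -0.44 ± 0.67 and 1.43 ± 0.70, and they are given with no test. Adult replicate 4, the highest, also had the highest marker sums of megakaryocytes (4320 CPM) and of erythroid cells (17200 CPM). Adult replicates 1 and 2 had ratios of 1.55 and 1.53 at megakaryocyte sums of 590 and 86.5 CPM. The part of these cells in the ratio was not tested.

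Ilk itself had 1658 to 2579 normalized counts in juvenile and 1194 to 2807 in adult libraries (log2 fold change 0.16, SE 0.23, adjusted p = 0.820), with the limit from Taf10 given above. Lims1 (PINCH-1), which joins ILK to the complex, had 428 to 813 and 499.9 to 1167 normalized counts (log2 fold change -0.63, SE 0.26, adjusted p = 0.225).

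Among kinases and scaffolds, Ptk2 (focal adhesion kinase) had 469, 217, 264, 372 and 341 normalized counts in juvenile and 292, 114, 154 and 178 in adult libraries. The groups overlapped through adult replicate 1, and the log2 fold change of 0.85 (SE 0.34) had an adjusted p of 0.199. Its relative Ptk2b (PYK2), prominent in osteoclasts and blood cells, had 335, 48.8, 115, 146 and 119.7 in juvenile and 198, 224, 222 and 198 in adult libraries (log2 fold change -0.46, SE 0.46, adjusted p = 0.696). The log2 ratio of Ptk2b over Ptk2 per kb averaged -0.67 ± 0.60 in juvenile and 0.95 ± 0.65 in adult libraries and overlapped between the ages. So did the ratios of Tln2 over Tln1, Fermt3 over Fermt2 (-2.81 ± 0.72 and -1.025 ± 1.68) and Itgb2 over Itgb1 (-3.23 ± 0.96 and -2.18 ± 0.29). Parvb over Parva was the only ratio taken that did not overlap.

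Bcar1 (p130Cas), a scaffold phosphorylated by Src, had 699, 479, 481, 513 and 496 normalized counts in juvenile and 415, 469.6, 350.2 and 97.5 in adult libraries. The juvenile values all lay above the adult ones, yet the gap was small except for adult replicate 4, and the log2 fold change of 0.68 (SE 0.36) had an adjusted p of 0.370. Src, the tyrosine kinase needed by osteoclasts, had 191 to 319 and 185 to 691 normalized counts (log2 fold change -0.59, adjusted p = 0.416). Pxn (paxillin), a docking scaffold, had 125 to 523 and 348 to 626 (log2 fold change -0.68, adjusted p = 0.351).

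Of the 7 genes that tie adhesions to actin, 5 had an interval within a doubling or a halving. Flna (filamin A), an actin crosslinker that binds beta tails, had 2096 to 2678 normalized counts in juvenile and 1546 to 2250 in adult libraries (log2 fold change 0.41, SE 0.16, adjusted p = 0.204). Actn4 was at -0.07 (SE 0.19), Actn1 at -0.13 (SE 0.27) and Vcl (vinculin) at -0.05 (SE 0.23), on the log2 scale. For Vcl, 25.5% of the exon sequence is shared with Ap3m1 on the other strand. Tns3 and Tns1, tensins of mature adhesions, were at -0.52 (SE 0.21, adjusted p = 0.196) and -0.63 (SE 0.31, adjusted p = 0.320).

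Zyx (zyxin), a LIM protein of tensed actin fibres, had 265, 398, 246, 223 and 539 normalized counts in juvenile and 214, 328, 244 and 1239 in adult libraries. Adult replicate 4 alone set the adult mean. The log2 fold change was -0.60 (SE 0.49, adjusted p = 0.612) with this library and 0.33 without it.

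The members varied less among juvenile than among adult libraries, as genes in general did. The median SD on the log2 scale was 0.40 in juvenile and 0.52 in adult libraries over the 39 members, with the larger SD in adults for 26 of 39 (66.7%), and 0.52 and 0.71 over all genes tested, with the larger SD in adults for 68.7%. Among genes with a mean normalized count over 200, the medians were 0.37 and 0.44 for 29 members and 0.34 and 0.45 for all genes.

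Of 62 other adhesion genes, 61 were tested and 2 were called (3.28%, against 3.88% of all genes), both higher in adults. Pdlim1, a LIM protein of actin fibres that binds alpha-actinin, averaged 27.8 ± 16.7 (SD, n = 5) in juveniles and 217 ± 42.5 (SD, n = 4) in adults, as normalized counts (log2 fold change -2.96, SE 0.59, edgeR adjusted p = 0.0158). Cd47, an integrin-associated protein of red cells and most other cells, had 734 ± 125 and 1571 ± 218 (log2 fold change -1.10, SE 0.18, adjusted p = 0.00593). Erythroid markers summed to 416 to 1770 CPM in juvenile and 2570 to 17200 CPM in adult libraries, and their part was not tested.

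Among 33 ligands of integrins, 26 were tested and 6 were called (23.1%, against 3.88% of all genes), 3 in each direction. That is 11.5% per direction, against 1.99% higher in juvenile and 1.89% higher in adult libraries over all genes tested. The list was chosen with earlier results of these data known, so this share is a description and no test. Higher in juveniles were Col1a1 and Col1a2, the chains of type I collagen, with log2 fold changes of 1.37 (SE 0.14, edgeR adjusted p = 4.26e-04) and 1.26 (SE 0.15, adjusted p = 0.00109), and Ibsp, bone sialoprotein, with 1.30 (SE 0.21, adjusted p = 0.00535). Higher in adults were Vcam1, the ligand of VLA-4, at -2.97 (SE 0.54, adjusted p = 0.0117), Tnc, tenascin C, at -0.96 (SE 0.19, adjusted p = 0.0168), and Col2a1, type II collagen, at -2.62 (SE 0.48, adjusted p = 0.0118). Col1a1 and Ibsp also stand in the osteoblast marker list, Vcam1 in the macrophage list and Col2a1 in the chondrocyte list. Fn1 and Spp1, fibronectin and osteopontin, had adjusted p of 0.731 and 0.856.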

How the data were processed

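RNA from laser-cut OF capillaries and their surrounding cells was sequenced in 9 libraries. The authors used TopHat2 with Bowtie2 (default settings) to map reads to mm10/GRCm38, and deposited whole-number counts per Ensembl gene, without normalization. The submitters' processing notes name featureCounts. Versions, strand setting and annotation release are not given in the sources used here. Symbols, positions and union exon lengths came from GENCODE M21.

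Ages were compared with edgeR 4.0.16 (R 4.3.3): filterByExpr, TMM, quasi-likelihood F test without covariates, Benjamini-Hochberg over all 13418 genes, called at an adjusted p under 0.05. DESeq2 1.42.0 and limma 3.58.1 were alternatives. Normalized counts are counts divided by the relative effective library size. The fits were tested on simulated data.

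Labels gave groups and no batch. Each library is taken as 1 mouse, and p-values measure the spread between libraries. No pair among 36 looked like a copy. Same-numbered libraries came from different mice, and their correlations ran from -0.03 to 0.03.

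Members and lists were chosen with earlier results of these data known. Named in full were called members and, by role, the 2 with the highest level per kb. Itgb8, Fermt3, Itgal, Parvb, Ptk2 and Zyx were added after their values were seen.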

Additional observations from a re-analysis of the deposited data

Results flagged for a closer look

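In 4 groups 1 library lay far from the others of its age, by a gap over range above the 95% critical value of Dixon's test. Chance sets apart about 1 in 20 groups, and 4.1 of the 82 groups checked would be set apart by chance. Itga8 had 90.0 normalized counts (124 raw counts) in adult replicate 1 and 0 in the other adult libraries. Itga6 had 447 in juvenile replicate 5, against 242 to 289 in the other juvenile libraries. Zyx had 1240 in adult replicate 4, against 214 to 328. Bcar1 had 699 in juvenile replicate 1, against 479 to 513.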

How the results depend on the processing

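No member called by edgeR changed sign under the alternatives run. The main fit called 2 of 39 members (1 higher in juvenile, 1 in adult) and 520 genes (3.88% of those tested). DESeq2 called 6 of 41 members (3 and 3) and 1490 genes (9.47%). A minimum of 10 counts in every library gave 5 of 34 members (3 and 2) and 647 genes (6.57%). Voom gave 1 of 39 members (0 and 1) and 460 genes (3.43%). No filter gave 2 of 45 members (0 and 2) and 488 genes (2.27%). DESeq2 called Fermt3, Itga10, Itgal, Itgam, Itgb8 and Parva. The minimum of 10 counts called these except Itgal, which that filter removed before testing, its lowest raw count being 0. Over the 7 libraries left without juvenile replicates 4 and 5, edgeR called 0 of 41 members (0 and 0) and 73 genes (0.526%). The replicate block, which pairs different mice that share only a number, gave 0 of 39 members (0 and 0) and 89 genes (0.663%). Of the 4 numbers, 3 correlated best with their own. Leaving out 1 library at a time gave 0 to 3 members (0 to 1 in juvenile, 0 to 2 in adult) and 262 to 651 genes (1.97% to 4.63%). DESeq2 size factors, upper-quartile scaling, thinning to the smallest total and removal of Xist and of Y-linked, mitochondrial, haemoglobin and immunoglobulin genes each left 2 members called. These fits called 3.82% to 4.07% of all genes tested. The cause of these shifts was not tested. Over all of these, 13 members changed sign at least once, none of them called. The log2 fold change of Itga9 went from 0.23 to -0.11 without juvenile replicate 1 and that of Zyx from -0.60 to 0.33 without adult replicate 4. That of Itga7 went from -0.20 to 0.75 without adult replicate 4 and 1.05 under the replicate block. Parva was called in 6 and Itgam in 8 of 10 alternatives with adjusted p of 0.00447 to 0.144 and 5.59e-04 to 0.145. The 95% interval reached beyond a doubling or a halving for all but 13 of the 39 members.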
